A study of Homo sapiens with 30 samples.

Results

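The luminal and AP-2 transcription factors GATA3, FOXA1, TFAP2A, TFAP2B, TFAP2C, ELF3, EHF and SPDEF were followed in 5 breast cancer cell lines treated with bone morphogenetic protein 4 (BMP4). They are 8 of the 19614 genes named on the array. Members were taken by gene name, and TFAP2B was selected on its lower BMP4 over vehicle ratio in MDA-MB-361, so its values there are a description without a test. The array carried 9 probes for them, 1 per gene and a pair for FOXA1. Cells of the established lines ZR-75-30, SK-BR-3, MDA-MB-361, HCC1954 and HCC1419 received either recombinant human BMP4 protein or vehicle and were collected after 30 min and after 1, 3, 6, 12 and 24 h. Each of the 30 arrays held 1 line at 1 time point, with RNA of vehicle-treated cells in Cy3 and RNA of BMP4-treated cells in Cy5. Cells from triplicate treatments were pooled, so an array shows 1 pooled RNA per channel, and each line is a single cell population without a repeat of any time point. The dyes were never swapped, so a ratio tested against 0 cannot be told apart from a dye bias of the probe.

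GATA3 and FOXA1 are transcription factors of the luminal epithelium of the breast. GATA3 is needed for luminal cells to form and be maintained, and FOXA1 opens chromatin for the oestrogen and androgen receptors. TFAP2A, TFAP2B and TFAP2C encode AP-2 alpha, beta and gamma, which bind the same GC-rich sites as dimers and are active in skin, neural crest and breast epithelium. ELF3, EHF and SPDEF are ETS-family factors restricted largely to epithelia. BMP4 acts through receptor kinases that phosphorylate SMAD proteins, which then enter the nucleus with SMAD4 and regulate genes such as ID1. ID1 served as the check that cells responded. Its mean log2 ratio over 3 to 24 h was lowest in SK-BR-3 (1.12) and ZR-75-30 (1.16), followed by MDA-MB-361 (1.44), HCC1954 (1.64) and HCC1419 (1.85).

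Luminal markers were measured in every line. Of 9 luminal and epithelial markers (KRT7, KRT8, KRT18, KRT19, CDH1, EPCAM, MUC1, CLDN3 and CLDN4), all were well above background on the 6 vehicle channels of each line, except CDH1 (E-cadherin), which was not well above background on any SK-BR-3 array. The 8 basal markers, which include KRT5, KRT14, KRT17 and EGFR, were all well above background on all 6 arrays in HCC1954, against 3 to 5 of them in the other lines. Of 3 leukocyte markers, PTPRC was well above background on no array, while the probes of CD3E and CD68 were above it on all 6 arrays of every line. The 30 arrays were scanned on 7 days, with all HCC1419 arrays on 1 day, all MDA-MB-361 arrays on another and the SK-BR-3 arrays on 2 days of their own, so for these lines the line and the scan day cannot be told apart. Only 1 day was shared, by HCC1954 and ZR-75-30.

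The first question was how much of each factor the lines held without BMP4. The vehicle level is the log2 of the Cy3 signal, and a difference of 1 is a 2-fold difference for the same probe. All 8 genes differed between lines (8 of 8 called), against 73.1% of all probes, by limma's moderated F test with Benjamini-Hochberg adjustment over all probes at an adjusted p under 0.05. The adjusted p ranged from 1.41e-27 for TFAP2B to 4.67e-05 for TFAP2A. The 6 arrays of a line are different time points, so their spread contains time as well as technical error. In these bulk samples fewer cells with a transcript and less transcript per cell cannot be told apart.

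**Figure D1:**
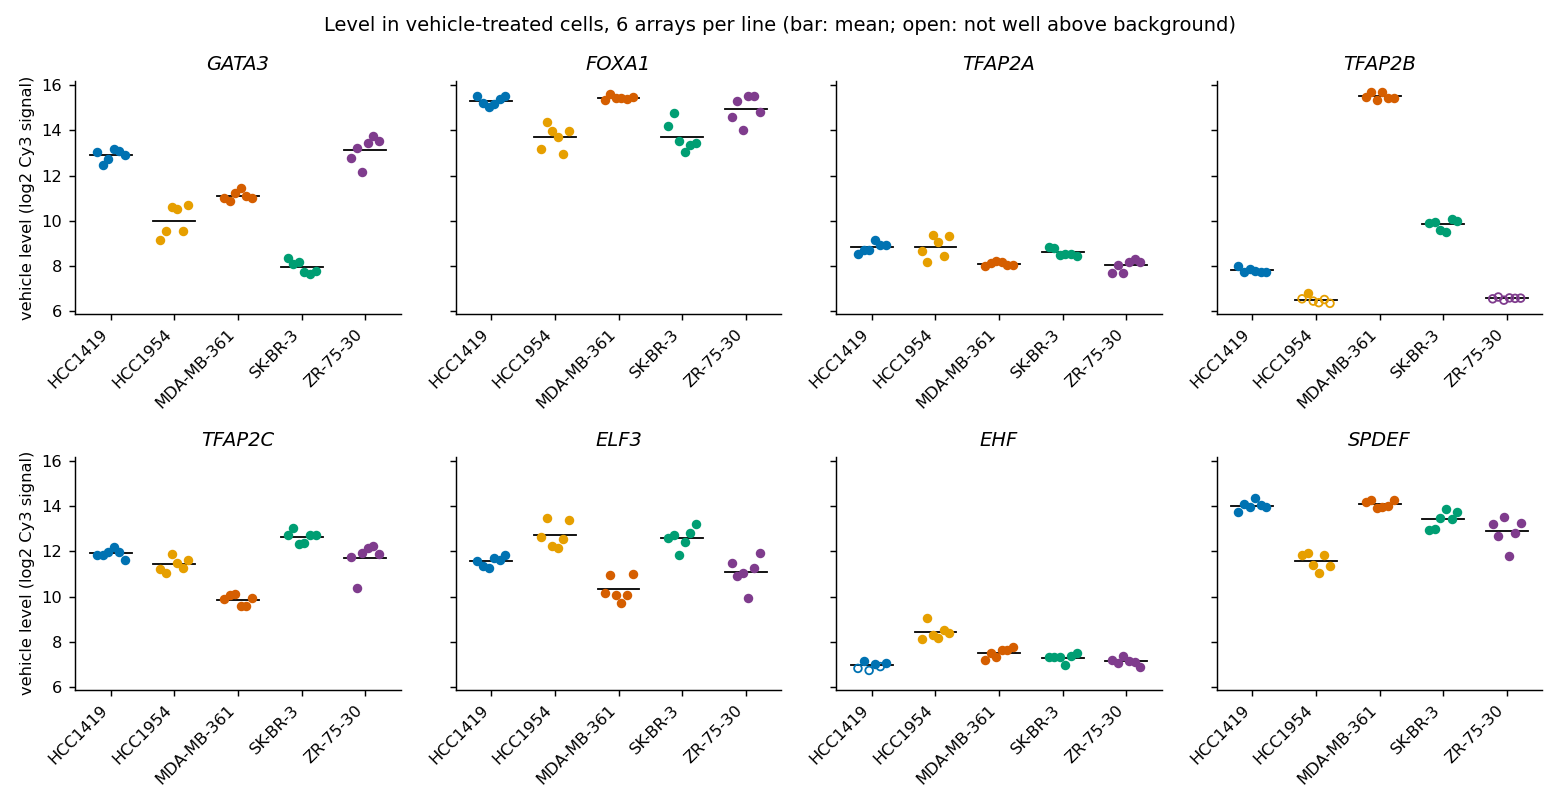
Vehicle level (log2 Cy3 signal) of each factor in each line. Points are the 6 arrays of a line in time order from left to right, bars are their means, and open points were not well above background. TFAP2B lies at 15.33 to 15.71 in MDA-MB-361 and below 10.2 in every other line, and GATA3 falls from 13.15 on average in ZR-75-30 to 7.97 in SK-BR-3.

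GATA3 (chr10:8155728-8155787, plus strand; all probe positions are hg18, as in the array annotation) was highest in ZR-75-30 and HCC1419. Its mean vehicle level was 13.15 ± 0.59 (SD, n = 6) in ZR-75-30, 12.91 ± 0.25 in HCC1419, 11.12 ± 0.20 in MDA-MB-361, 10.02 ± 0.68 in HCC1954 and 7.97 ± 0.28 in SK-BR-3. Only ZR-75-30 and HCC1419 overlapped, and every other neighbour in this order was separated on all arrays. ZR-75-30 lay 36.1-fold above SK-BR-3, where GATA3 was nevertheless well above background on 6 of 6 arrays. FOXA1 was read by 2 neighbouring probes that do not overlap (chr14:37129205-37129264 and chr14:37129297-37129356, minus strand), the second printed in 10 spots per array. On the first probe the vehicle level was 15.45 ± 0.09 in MDA-MB-361, 15.30 ± 0.20 in HCC1419, 14.95 ± 0.61 in ZR-75-30, 13.72 ± 0.64 in SK-BR-3 and 13.69 ± 0.54 in HCC1954 (SD, n = 6 each). MDA-MB-361 and HCC1419 were separated from SK-BR-3 and HCC1954 on every array, by 2.99-fold to 3.38-fold, while ZR-75-30 overlapped with all of the others.

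The AP-2 genes differed from each other in which line held the most. TFAP2B (chr6:50919289-50919348, plus strand) reached a mean vehicle level of 15.51 ± 0.15 (SD, n = 6) in MDA-MB-361, with HCC1419 at 7.82 ± 0.11 and SK-BR-3 at 9.85 ± 0.23. It was 50.7-fold higher in MDA-MB-361 than in SK-BR-3, the line with the next highest level. All 6 ZR-75-30 arrays failed the criterion of being well above background, and MDA-MB-361 was at least 468-fold higher, counting each ZR-75-30 array at the higher of its own signal and the lowest signal well above background on that array. In HCC1954 only 1 of 6 arrays was well above background, at a level of 6.80. TFAP2C (chr20:54647053-54647112, plus strand) was lowest where TFAP2B was highest. Its mean vehicle level was 9.86 ± 0.22 in MDA-MB-361, compared with 12.64 ± 0.26 in SK-BR-3, 11.91 ± 0.19 in HCC1419, 11.72 ± 0.69 in ZR-75-30 and 11.43 ± 0.30 in HCC1954. SK-BR-3 lay 6.85-fold above MDA-MB-361, and both stood apart from all other lines on every array, whereas HCC1419, ZR-75-30 and HCC1954 overlapped. TFAP2A (chr6:10508703-10508762, minus strand) varied least. Its line means ran from 8.03 ± 0.26 in ZR-75-30 to 8.84 ± 0.49 in HCC1954, a 1.76-fold span, and these 2 lines overlapped.

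The ETS factors also had different orders. ELF3 (chr1:200251052-200251111, plus strand) had a mean vehicle level of 12.73 ± 0.56 in HCC1954, 12.60 ± 0.45 in SK-BR-3, 11.55 ± 0.22 in HCC1419, 11.09 ± 0.66 in ZR-75-30 and 10.33 ± 0.52 in MDA-MB-361 (SD, n = 6 each). HCC1954 and SK-BR-3 overlapped with each other and lay above HCC1419 on every array. EHF (chr11:34638487-34638546, plus strand) was also highest in HCC1954, at 8.44 ± 0.34, and that line stood above the others on every array. The remaining lines lay at 7.51 ± 0.21 (MDA-MB-361), 7.30 ± 0.19 (SK-BR-3), 7.14 ± 0.16 (ZR-75-30) and 6.96 ± 0.16 (HCC1419), each overlapping with its neighbour, and in HCC1419 only 3 of 6 arrays were well above background. SPDEF (chr6:34614085-34614144, minus strand) was lowest in HCC1954, the line with the highest EHF, with 14.09 ± 0.17 in MDA-MB-361, 14.03 ± 0.20 in HCC1419, 13.41 ± 0.38 in SK-BR-3, 12.88 ± 0.61 in ZR-75-30 and 11.57 ± 0.36 in HCC1954. MDA-MB-361 was 5.77-fold above HCC1954.

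The second question was whether BMP4 changed the factors in all lines together. The measure is the log2 ratio of BMP4 over vehicle after loess normalization within each array. None of the 8 genes passed the test against 0 at any time point. Among all probes the share called was smallest at 30 min (0.0805%) and 6 h (0.176%), then came 3 h (0.349%), 12 h (0.463%), 1 h (0.973%) and 24 h (1.58%). At an unadjusted p under 0.05, 2 of 8 members passed at 30 min, beside 2906 of 41000 probes, and 2 at 3 h, beside 4213. None passed at the other time points, where 2852 to 5954 probes did. No member passed for the change from 30 min to the mean of 3 to 24 h (0.0927% of all probes). The same held for any change over time (0.0902%) and for a late change that differed between lines (0.00976%). At an unadjusted p under 0.05 the members passing were 0, 1 and 1 of 8, in that order. Among all probes 2047 of 41000, 1724 of 41000 and 2360 of 40984 passed at that threshold. For the change from 30 min to 3 to 24 h, FOXA1 was read by its first probe. No 95% interval of a member then reached past -0.42 or 0.41, so a shared late change of 2-fold in the loess ratio lay outside all 8 intervals. However, TFAP2B was well above background in Cy3 on only 19 of 30 arrays and EHF on 27. Ratios near background can understate a change, so for these genes the intervals do not exclude a 2-fold change of the transcript. The interval of the second FOXA1 probe was wider, from -0.65 to 0.08.

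**Figure D2:**
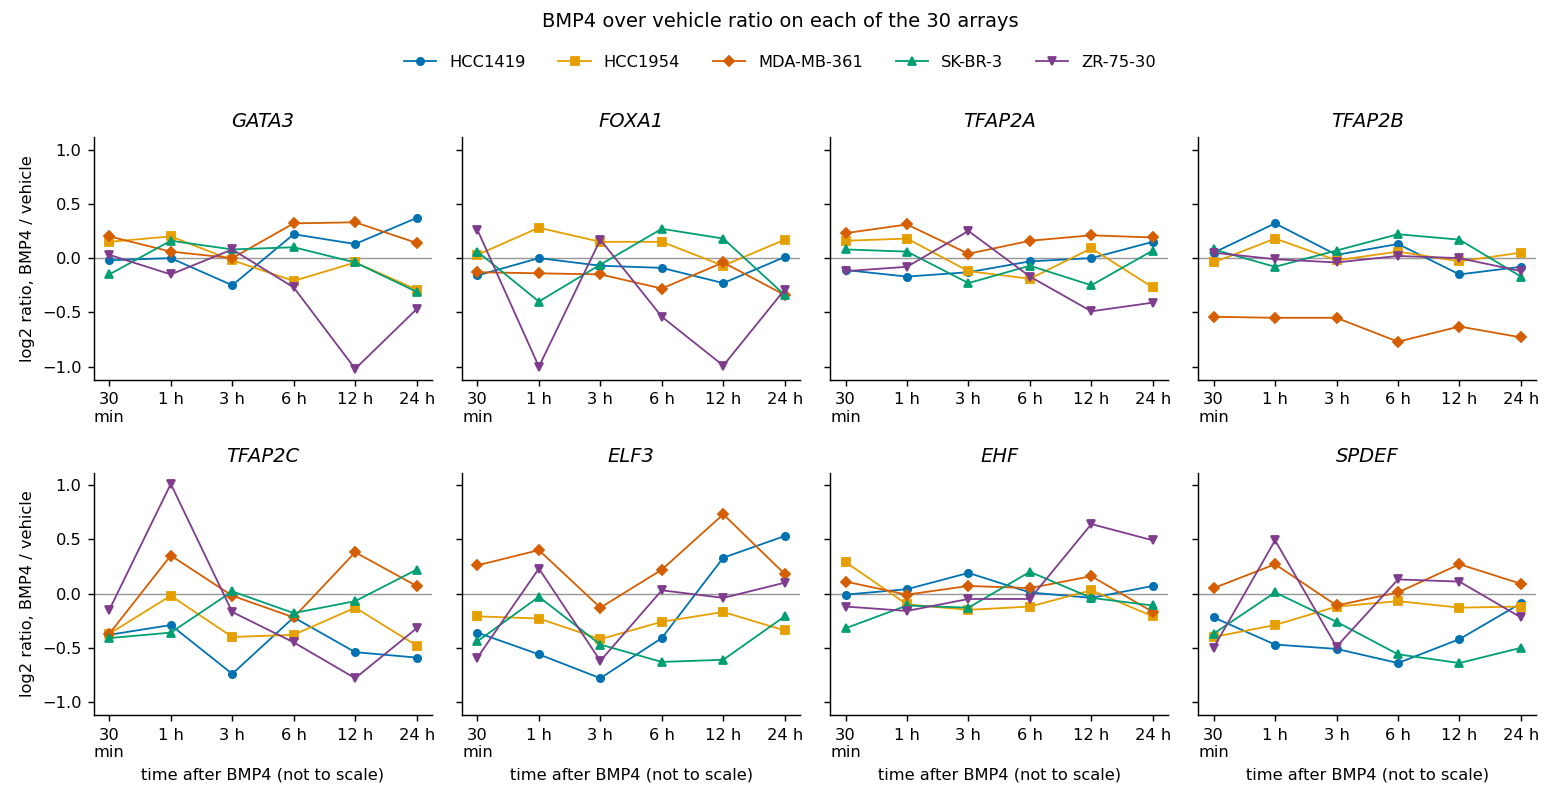
Log2 ratio of BMP4 over vehicle (vertical axis) at each time point (horizontal axis, evenly spaced) for the 8 factors, with 1 point per array and 1 colour per line. Most points lie within 0.5 of 0, TFAP2B in MDA-MB-361 stays between -0.54 and -0.77, and ZR-75-30 holds the most extreme values of GATA3, FOXA1 and TFAP2C.

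**Figure D3:**
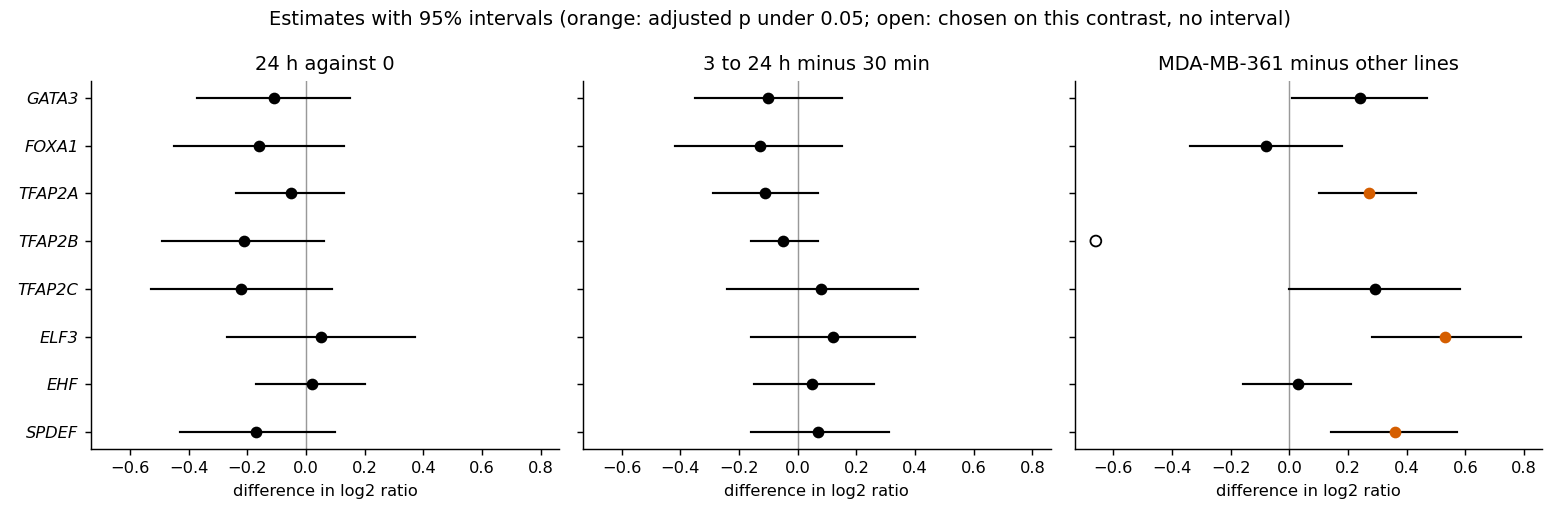
Estimated log2 differences with 95% intervals from limma for the ratio at 24 h, the change from 30 min to 3 to 24 h, and MDA-MB-361 minus the mean of the other lines. The intervals of the first 2 comparisons all include 0, and in the third ELF3, SPDEF and TFAP2A passed the test.

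After loess the ratios on single arrays were small. Over the 30 arrays and 8 genes, with FOXA1 read by its first probe, the log2 ratio ran from -1.02 to 1.01 with a median of -0.07, and 2 of 240 values (0.833%) reached 2-fold, against 0.5% of the values of all probes. The second FOXA1 probe reached 2-fold on 2 further occasions, at -1.64 and -1.48 in ZR-75-30. Below 0 were 61.7% of the member values and 49.9% of all values. Below 0 on most arrays were TFAP2C (24 of 30), SPDEF (21), ELF3 (20) and FOXA1 (19), with 14 to 17 arrays below 0 for the other genes. Because no array had the dyes reversed, such a lean over all lines cannot be told apart from a dye bias of these probes. ELF3 came closest to a shared change, at 3 h, with log2 ratios of -0.13 in MDA-MB-361, -0.42 in HCC1954, -0.47 in SK-BR-3, -0.62 in ZR-75-30 and -0.78 in HCC1419. All 5 lines were below 0, and the mean of -0.48 ± 0.16 (SE) had an adjusted p of 0.227 in limma. With the cell line as a block, the adjusted p was 0.0481 for ELF3 at 3 h (1.08% of all probes called).

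TFAP2B in MDA-MB-361 had a BMP4 over vehicle ratio below 0 from the first time point on. In time order from 30 min to 24 h its log2 ratios there were -0.54, -0.55, -0.55, -0.77, -0.63 and -0.73. After loess all 6 arrays were below every array of the other lines, which ran from -0.17 to 0.32. However, HCC1954 and ZR-75-30 hold too little signal on this probe to show a fall. SK-BR-3 and HCC1419 had TFAP2B well above background on every array, and the log2 ratios averaged 0.05 ± 0.15 and 0.05 ± 0.17 (SD, n = 6 each). The probe was dim in HCC1419 (mean vehicle level 7.82). Its ratio there at 24 h was -0.08 after loess but -0.87 with the scanner software's normalization. In MDA-MB-361 the mean of 3 to 24 h minus the value at 30 min was -0.13, so most of the difference was present at the earliest time point. The vehicle level ran from 15.33 to 15.71 and the BMP4 level from 14.69 to 15.16, so that the channels did not overlap. With no dye swap, a dye bias of this probe at high signal cannot be told apart from a fall with BMP4.

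**Figure D4:**
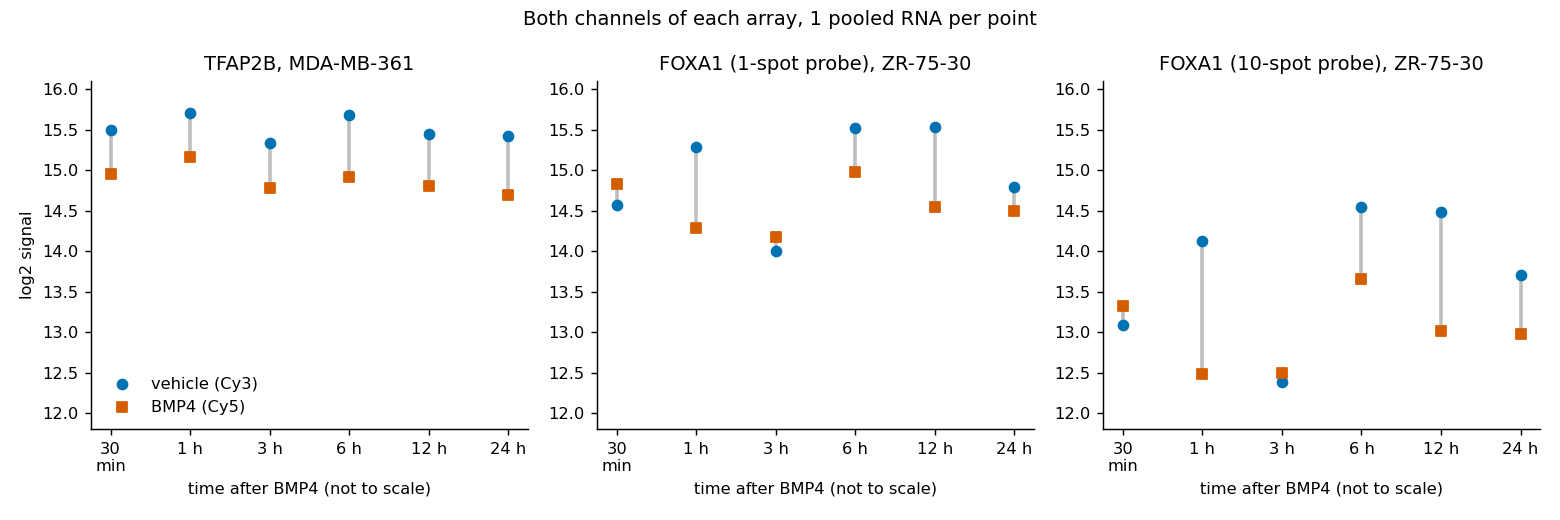
Log2 signal of the vehicle (Cy3) and BMP4 (Cy5) channels on each array over time, for TFAP2B in MDA-MB-361 and both FOXA1 probes in ZR-75-30. For TFAP2B the BMP4 channel is lower at all 6 time points (ratios of -0.77 to -0.54), whereas for FOXA1 it is lower at 1, 6, 12 and 24 h and slightly higher at 30 min and 3 h.

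The TFAP2B probe was among the brightest on these arrays, so its ratio was set beside those of the other bright probes. On each MDA-MB-361 array 748 to 792 probes had a vehicle level of 15 or more. Their median log2 ratio lay between -0.01 and 0.03, and the rank of TFAP2B from the lowest was 6, 10, 3, 4, 26 and 18 in time order. Because TFAP2B was chosen for its low ratio on these arrays, a low rank follows from that choice and is a description only. The rank also cannot show a dye bias of this 1 probe. The value depended on how the channels were scaled. With the scanner software's own normalization the 6 ratios ran from -0.85 to -0.45, and in the series table from -0.82 to -0.43. The other lines then reached down to -0.87 and -0.91, both in HCC1419 at 24 h. Under these scalings MDA-MB-361 was therefore not separated from every other array. With a single factor per array in place of loess the 6 MDA-MB-361 ratios ran from -0.65 to 0.05. The ratio at 30 min was 0.05, so the early difference was not seen under that scaling.

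The single RefSeq start of TFAP2B is shown because the gene was chosen for its lower ratio in MDA-MB-361. The 250 bases upstream of it (RefSeq, GRCh38.p14, 5′ to 3′) are in lower case, with capitals kept for any match to GGCGCC (an element bound by BMP SMADs), GTCTAGAC (the SMAD palindrome) or GCCNNNGGC (an AP-2 site), each of which reads the same on both strands. The window held none of them.
TFAP2B, chr6:50818621-50818870, plus strand: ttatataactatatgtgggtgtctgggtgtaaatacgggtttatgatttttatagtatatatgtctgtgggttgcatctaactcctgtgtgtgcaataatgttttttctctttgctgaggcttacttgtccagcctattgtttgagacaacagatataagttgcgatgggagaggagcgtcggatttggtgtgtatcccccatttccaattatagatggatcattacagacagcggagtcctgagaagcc
The promoter table had windows for 7 of the 8 genes. Of all 35116 windows of 300 bases in it, 19.2% hold GGCGCC, 0.202% GTCTAGAC and 23.2% GCCNNNGGC. A missing match says only that these letters are not in the window.

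The third question was whether the response differed between lines. TFAP2B aside, 2 of the other 7 genes, ELF3 and SPDEF, passed the F test between lines, against 22.2% of all probes, and 3 of 7 passed for MDA-MB-361 against the mean of the other lines, against 22.3% of all probes. With only 7 genes these shares are not read as a result about the group. ELF3 in MDA-MB-361 had log2 ratios of 0.26, 0.40, -0.13, 0.22, 0.73 and 0.18 in time order. It was above 0 on 5 of 6 arrays there, whereas HCC1954 (-0.42 to -0.17) and SK-BR-3 (-0.63 to -0.03) were below 0 on all 6. ELF3 was 0.53 ± 0.12 (SE) higher in MDA-MB-361 than in the other lines, with an adjusted p of 0.00344 in limma, and the F test between lines gave 0.0228.

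SPDEF had a similar order of lines. In MDA-MB-361 its log2 ratios were 0.05, 0.27, -0.11, 0.01, 0.27 and 0.09 in time order, while all 6 arrays were below 0 in HCC1419 (mean -0.39 ± 0.20, SD) and in HCC1954 (mean -0.19 ± 0.13) and 5 of 6 in SK-BR-3 (mean -0.39 ± 0.24). SPDEF was 0.36 ± 0.10 (SE) higher in MDA-MB-361 than in the other lines (limma, adjusted p 0.0152, and 0.0284 for the F test between lines). All 6 MDA-MB-361 arrays lay within the range of ZR-75-30 (-0.50 to 0.49), and 5 of them lay above every HCC1954 array. TFAP2A was above 0 on all 6 MDA-MB-361 arrays, from 0.04 to 0.31, and 0.27 ± 0.08 (SE) higher than in the other lines (adjusted p 0.0192, and 0.0847 for the F test between lines). GATA3 was likewise at or above 0 there on 6 of 6 arrays (0.00 to 0.33), with a difference of 0.24 ± 0.11 that did not pass (adjusted p 0.121). TFAP2C (0.29 ± 0.14, adjusted p 0.155), FOXA1 (-0.08 ± 0.13, 0.730) and EHF (0.03 ± 0.09, 0.884) did not pass either.

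These calls rest on particular settings and arrays. With a single factor per array, none of ELF3, SPDEF and TFAP2A passed in either comparison, although the differences for MDA-MB-361 were 0.64, 0.53 and 0.36, and without the 12 h arrays only ELF3 passed for MDA-MB-361. TFAP2A also failed there without the 6 h arrays (adjusted p 0.0774), with the software's ratio (a difference of 0.36, adjusted p 0.0666) and in the series table (0.38, adjusted p 0.0612). Between lines no member passed without the 6 h arrays or without the 12 h arrays, 1 passed without the 24 h arrays and 4 without the 3 h arrays. Luminal markers moved in MDA-MB-361 beside them. Of the 9 luminal and epithelial markers 6 passed, against 22.3% of all probes, of which 4 were higher (CLDN4, KRT7, MUC1 and KRT8) and 2 lower (CDH1 and KRT19), and their summed vehicle signal was 527000 to 612000 there and 261000 to 654000 over the other lines. Of 8 basal markers EGFR was lower, of 7 mesenchymal markers SNAI2 was higher, and none of 3 leukocyte markers passed. The part of these markers in the result was not tested.

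The upstream windows of ELF3 and SPDEF are shown because the ratios of these genes moved together over the arrays (r = 0.74 over 30 arrays, 0.66 after removing line means). They are 250 bases before the RefSeq start (GRCh38.p14, 5′ to 3′), with matches to the same 3 motifs in capitals.
ELF3, chr1:202010337-202010586, plus strand: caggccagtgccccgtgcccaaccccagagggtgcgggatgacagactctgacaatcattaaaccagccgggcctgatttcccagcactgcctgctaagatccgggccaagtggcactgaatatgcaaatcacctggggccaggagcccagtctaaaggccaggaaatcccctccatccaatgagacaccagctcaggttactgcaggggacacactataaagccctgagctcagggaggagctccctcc
SPDEF, chr6:34556330-34556579, minus strand: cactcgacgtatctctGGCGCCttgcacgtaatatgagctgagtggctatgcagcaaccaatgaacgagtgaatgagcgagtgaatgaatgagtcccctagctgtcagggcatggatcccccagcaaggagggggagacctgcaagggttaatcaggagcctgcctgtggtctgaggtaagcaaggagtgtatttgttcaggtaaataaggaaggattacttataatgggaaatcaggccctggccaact
SPDEF held GGCGCC once and ELF3 held none of the 3 motifs. Both are the only starts in the table for their genes. GATA3 had 6 starts, 3 of which held both GGCGCC and GCCNNNGGC, in one case overlapping.

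ZR-75-30 gave the widest swings. FOXA1 on its first probe had log2 ratios of 0.26, -1, 0.17, -0.54, -0.99 and -0.29 in time order, the value at 1 h just short of 2-fold. The probe with 10 spots followed it with 0.24, -1.64, 0.11, -0.88, -1.48 and -0.72. The probes correlated with r = 0.961 across the 30 arrays, and the spots of the second varied by an SD of 0.038 to 0.183 on an array, which is the error of printing and scanning only and not that between samples. The ratios moved with both channels. The vehicle level of the 10-spot probe ran from 12.39 at 3 h to 14.54 at 6 h, a wider range than that of the BMP4 channel (12.48 to 13.66). The arrays with negative ratios were those with the higher vehicle levels. The lowest ratio, -1.64 at 1 h, also had the lowest BMP4 level (12.48), at a vehicle level of 14.12. In HCC1419 the same probe was nearly constant, from -0.31 to -0.22. The arrays of 1, 6 and 24 h were scanned on 1 day and those of 30 min, 3 h and 12 h on another, and the first day held 3 negative values of 3, the second 1 of 3. FOXA1 did not pass between lines (adjusted p 0.126 on the first probe and 0.0639 on the second).

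GATA3 and TFAP2C each reached 2-fold once after loess, also in ZR-75-30. GATA3 was at 0.03, -0.15, 0.08, -0.27, -1.02 and -0.47 from 30 min to 24 h, and at 12 h the vehicle level (13.77) was the highest of the 6. TFAP2C was at -0.15, 1.01, -0.17, -0.45, -0.78 and -0.32. At 1 h its vehicle level was 10.36 against 11.77 to 12.22 on the other 5 arrays, whereas the BMP4 level was 11.36 against 11.44 to 11.77, so the ratio moved mainly with the vehicle channel. EHF in ZR-75-30 was 0.64 at 12 h and 0.49 at 24 h after -0.16 to -0.05 at the earlier time points. The BMP4 level was 7.74 at 12 h and 7.38 at 24 h after 6.91 to 7.34 before, and the vehicle level at 24 h was the lowest of the 6 (6.89, with 7.08 to 7.39 on the others), with 1 pooled RNA behind each value. The EHF ratios at 12 and 24 h were 1.21 and 1.05 with the scanner software's normalization, and 1.04 and 1.06 in the series table. Both thus reached 2-fold under those scalings but not after loess. With 1 array per line and time point, none of these single values has a replicate.

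TFAP2C leaned below 0 in all lines but MDA-MB-361. All 6 ratios were negative in HCC1419 (-0.74 to -0.22, mean -0.46 ± 0.20, SD) and in HCC1954 (-0.48 to -0.02, mean -0.30 ± 0.18). Negative ratios numbered 5 of 6 in ZR-75-30, 4 of 6 in SK-BR-3 and 3 of 6 in MDA-MB-361. The F test between lines did not pass for TFAP2C (adjusted p 0.230). ELF3 in HCC1419 ran from -0.36, -0.56, -0.78 and -0.41 at 30 min to 6 h to 0.33 at 12 h and 0.53 at 24 h. Its vehicle level stayed between 11.26 and 11.84 while the BMP4 level was 10.48 at 3 h and 12.37 at 24 h. A change over time that all lines share was not called for ELF3 (adjusted p 1, unadjusted p 0.0281).

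On the scan day that held 3 arrays each of HCC1954 and ZR-75-30, the time points were not the same (3, 6 and 24 h for HCC1954, and 30 min, 3 h and 12 h for ZR-75-30). Within that day ZR-75-30 minus HCC1954 was -0.07 for ELF3 and -0.19 for SPDEF. The widest gaps were -0.35 for FOXA1 and 0.32 for EHF.

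Ratios of the members were compared with each other over the 30 arrays, which share lines, scan days and dye orientation, so the correlations are descriptions. GATA3 and TFAP2A moved together (r = 0.73, and 0.66 after removing line means), and GATA3 with FOXA1 less so (0.47 and 0.46). FOXA1 and SPDEF ran opposite (r = -0.59 and -0.69). TFAP2B against ELF3 (r = -0.68 and -0.51) also ran opposite, in part through MDA-MB-361. The 5 genes most like TFAP2B among 20942 probes searched were OLIG1 (r = 0.896), MXRA8 (0.872), RASSF2 (0.851), HSPA12A (0.849) and PTPN18 (0.841), with mean log2 ratios of -0.36 to -0.70 in MDA-MB-361. Within lines their correlations fell to 0.273 to 0.556, so much of the likeness lay in the level of the MDA-MB-361 arrays. The gene most like each other member was TEAD2 for GATA3 (r = 0.868), ECT2 for FOXA1 (0.912), ITGA3 for TFAP2A (0.919), DHRS4 for TFAP2C (0.837), RHOV for ELF3 (0.918), PSD3 for EHF (0.775) and PLOD1 for SPDEF (0.907).

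Relatives and partners of the factors were examined as lists. Of 12 AP-2 relatives and partners, none passed at any time point in limma. At an unadjusted p under 0.05, 0 to 3 of 12 passed per time point, beside 2852 to 5954 of 41000 probes. Medians lay between -0.10 and 0.02, beside 0.00 for all probes. For MDA-MB-361 against the other lines 3 of 12 passed, against 22.3% of all probes. CITED4, a coactivator of AP-2, was lower (mean log2 ratio -0.66 in MDA-MB-361 and -0.21 to 0.02 elsewhere, difference -0.56 ± 0.11, adjusted p 0.000991). KCTD15, which inhibits AP-2 alpha, was higher by 0.31 ± 0.07 (adjusted p 0.0037). EP300, an acetyltransferase coactivator, passed between lines only, with a mean of -0.58 in ZR-75-30 and -0.14 to 0.16 elsewhere (adjusted p 0.0358).

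Among 21 relatives in the GATA, FOXA and ETS families, GATA2 passed for the change from 30 min (1 of 21, against 0.0927% of all probes), and 1 gene passed against 0 at 1 h (0.973% of all probes) and 2 at 24 h (1.58%). GATA2, a GATA factor best known from blood stem cells, was 0.71 ± 0.13 higher over 3 to 24 h than at 30 min (adjusted p 0.0159) and stood at 0.79 ± 0.20 at 24 h (adjusted p 0.0357). Its ratio averaged over time differed between lines, with means of 0.89 in HCC1419 and 0.82 in MDA-MB-361 against 0.05 in HCC1954 (adjusted p 0.00138). ELF5, an ETS factor of luminal progenitors, stood at 0.82 ± 0.17 at 1 h (adjusted p 0.0191). ELF4 stood at 0.50 ± 0.10 at 24 h (adjusted p 0.00696), a test against 0 like that of ELF5, and was close to 0 in MDA-MB-361 (mean 0.04). Between lines 7 of 21 passed, against 22.2% of all probes, among them ZFPM1, the GATA cofactor FOG1, with means of -1.02 in HCC1419, -0.62 in SK-BR-3 and 0.75 in MDA-MB-361 (adjusted p 0.0201). The other calls between lines were ETS2, ELF1, GABPA and GATA5. For MDA-MB-361 against the other lines 5 of 21 passed, against 22.3% of all probes, 2 higher and 3 lower, with ZFPM1 the most different (1.16 ± 0.32, adjusted p 0.012).

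Of 31 genes of the luminal programme none passed at any time point or for the late change in limma. At an unadjusted p under 0.05, 1 to 9 of 31 passed per comparison, beside 2047 to 5954 of 41000 probes. Medians ran from -0.05 to 0.01. Between lines 10 of 31 passed, against 22.2% of all probes. For MDA-MB-361 against the other lines 10 of 31 passed as well, 5 higher and 5 lower with a median of 0.00. CLDN4, KRT7 and CDH1 had the smallest adjusted p. CLDN4, a tight-junction protein, was 0.64 ± 0.10 higher (adjusted p 0.000387) and KRT7, a luminal keratin, 0.47 ± 0.10 higher (adjusted p 0.00179). CDH1 was lower (-0.38 ± 0.09, adjusted p 0.00321). AGR3 and MLPH were also lower and MUC1, CA12 and KRT8 higher, with AGR3 not well above background in HCC1954 and SK-BR-3. In ZR-75-30, SLC39A6, a zinc transporter of oestrogen receptor-positive cells, had a mean of -0.67 and SCGB2A2, mammaglobin, which was not well above background in HCC1954, of -0.68, with -0.09 to 0.06 and -0.26 to 0.27 elsewhere (between lines, adjusted p 0.00512 and 0.00919).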

How the data were processed

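Agilent two-colour arrays of 5 cell lines at 6 time points were analysed from the scanner files. The authors ran Feature Extraction, per the file headers version 9.5.1.1 with hg18. The deposited mean signals and median backgrounds are intensity values without normalization, and the processed signals, also deposited, are intensity values that the software had background-subtracted and dye-normalized. The deposited log ratio is a log10 value of Cy5 over Cy3, and the authors' series table holds a log2 ratio per probe, centred on a median of 0 per array (lowest Pearson correlation with the processed signals 0.9999).

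Signals were corrected by normexp (offset 50), ratios normalized by loess within arrays, and 1639 of 45015 spots, the controls, left out. Vehicle levels are Cy3 signals after loess and Aquantile. An array had 58.9% to 70.6% of probes well above background in Cy3. Spots of a probe on an array were averaged and not counted as replicates. No member probe was saturated or missing on any array.

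Tests used limma 3.58.1 in R 4.3.3 (lmFit, eBayes) over 41000 probes with Benjamini-Hochberg adjustment. Time points were tested against 0 without a block. Changes over time had the cell line as a block, and tests between lines had the time point in the model. The replicate number is the cell line, so it pairs arrays across time points, and arrays of a line deviated together with a mean r of 0.232 (44 of 75 pairs above 0.1). FOXA1 is counted by the probe with the higher vehicle level. All member probes are named, list genes where called (up to 8 per list and test) apart from an item that is not reported here, and genes of like pattern by the highest Pearson r among probes well above background in either channel on more than 15 arrays. The members and lists were chosen with earlier results of these data known. Alternatives were the software's ratio, 1 factor per array, the series table, a filter on dim probes, array weights, the mean of a gene's probes, the block, each replicate left out, and scan day or slide as a random block (in part chosen after seeing the data). The code was tested on simulated data.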

Additional observations from a re-analysis of the deposited data

Results flagged for a closer look

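Within each time point the highest or lowest of the 5 lines was compared with the rest by Dixon's ratio, gap over range, with a critical value of 0.71. TFAP2B aside, 3 of 42 groups passed, and chance gives about 1 in 20. TFAP2B in MDA-MB-361 was chosen for its difference, so its values are a description; it stood apart at 30 min (log2 ratio -0.54, other lines -0.04 to 0.08), 3 h (-0.55), 6 h (-0.77) and 24 h (-0.73). GATA3 in ZR-75-30 stood apart at 12 h (-1.02, other lines -0.04 to 0.33). EHF in ZR-75-30 stood apart at 12 h (0.64, other lines -0.04 to 0.16). TFAP2C in ZR-75-30 stood apart at 30 min (-0.15, other lines -0.41 to -0.37) because the other lines lay close together. ELF3 and SPDEF are listed because their ratios differed between lines in limma's F test, with adjusted p of 0.0228 and 0.0284.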

How the results depend on the processing

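No result changed direction while called. Vehicle levels of all 8 genes differed between lines under all 13 alternatives run for them, and no member passed for the late change, the change over time or the late change between lines under any of 14. At 3 h 1 of 8 members passed with array weights and 1 with the replicate block (cell line), ELF3 in both, and at 24 h 1 with the replicate block, TFAP2B, whose mean there is carried by the MDA-MB-361 value it was chosen on. The block changed no other member's call at a time point. Between lines, the 2 members called became 1 with the software log ratio, 0 with 1 factor per array, 4 with array weights, and 0 to 4 with 1 time point left out (0 without 6 h and without 12 h, 1 without 24 h, 4 without 3 h), while probes called overall fell from 9086 to 11 with 1 factor per array. For MDA-MB-361 against the other lines, the 3 members called became 0 with 1 factor per array and 1 to 3 with 1 time point left out (1 without 12 h). ELF3 passed there under 13 of 14 alternatives (adjusted p 0.00221 to 0.103), SPDEF under 12 (0.0106 to 0.133) and TFAP2A under 9 (0.00617 to 0.0939). Of 803 comparisons of a result with an alternative 769 kept their side of the threshold or, for a count of members, stayed within 1.5 times it, as where the 3 members for MDA-MB-361 became 2 with the software log ratio, in the series table and without 6 h. The cause of these shifts was not tested. With a single pooled RNA per line and time point, a change in 1 line at 1 time point cannot be tested.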
